A study of Homo sapiens with 9 samples.

Results

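The solute carrier (SLC) genes encode membrane transporters for small molecules and ions, numbered by family. Members were chosen by symbol alone, as every gene whose symbol has the form SLC, a family number, and a subfamily letter with a member number, leaving out pseudogene symbols. This rule took 204 of the 14839 genes for which expression was measured. The cells were MP41, a uveal melanoma (UM) line derived from a tumor of the pigmented layer of the eye and mutated in *GNA11*, which keeps the Gαq pathway active. Cells were grown in RPMI-1640 medium with 20% serum and transfected with a synthetic miR-16 or with the control mimic miR-CTR, both at 66 nM, using Lipofectamine RNAiMAX. PolyA RNA was sequenced before transfection (0 h, a library that carries the control label) and at 6, 12, 24, and 48 h with each mimic. This made 9 libraries, 1 for each condition, from 1 cell line, with no replicates. No p-value is therefore given, and spread between separate cultures could not be measured. The table names its time points by rank, and these ranks were taken as 0, 6, 12, 24, and 48 h in rising order.

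Solute carriers move amino acids, sugars, nucleosides, vitamins, metals, and ions across the plasma membrane and across the membranes of mitochondria, lysosomes, Golgi, and secretory granules. Most work as exchangers, as uniporters, or by coupling the substrate to a sodium or proton gradient. Some need a partner protein to reach the cell surface, as certain amino acid carriers of family 7 need the heavy chain SLC3A2. In pigment cells, SLC45A2 and SLC24A5 act in the melanosome, the organelle that makes melanin. A miRNA guides Argonaute proteins to complementary sites, mostly in 3′UTRs of mRNAs, through its seed (bases 2 to 8), and the target mRNA is usually degraded.

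The sequences below show the miR-16 seed and stretches of the 3′UTRs of 7 solute carrier mRNAs that match its complement. These mRNAs were chosen because the results turn on these genes, and not every match is shown. Mature miR-16 comes from MIR16-1 (chr13:50049027-50049048, reverse strand) and MIR16-2 (chr3:160404754-160404775, forward strand; RefSeq, GRCh38.p14), with the seed in capitals. The other lines are 3′UTR sequence (GENCODE version 29, GRCh38), read 5′ to 3′ on the mRNA strand, with the match in capitals. A match to bases 2 to 8 (TGCTGCT) is a 7mer-m8, the same followed by an A (TGCTGCTA) is an 8mer, and a match to bases 2 to 7 followed by an A (GCTGCTA) is a 7mer-A1.
miR-16: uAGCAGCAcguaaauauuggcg
SLC2A3, chr12:7921309-7921316, reverse strand: acgcttctgaaTGCTGCTActtaattcctt
SLC2A14, chr12:7814211-7814218, reverse strand: ctgcttctgaaTGCTGCTActtgatttctt
SLC11A2, chr12:50988089-50988096, reverse strand: aagctgacattTGCTGCTAtcattccaaca
SLC11A2, chr12:50986146-50986153, reverse strand: tgaaataattgTGCTGCTAcattatactgg
SLC7A5, chr16:87830255-87830261, reverse strand: atgctcagcctTGCTGCTctgcgtggcgc
SLC25A22, chr11:790575-790581, reverse strand: accttggaagcTGCTGCTgctgcttacag
SLC16A6, chr17:68267609-68267615, reverse strand: tggtcaatgctTGCTGCTccatctttatt
SLC45A2, chr5:33946208-33946215, reverse strand: aggtgggatgtTGCTGCTAatgggagagtc

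Values are the normalized log2 expression that the authors deposited. On the linear scale, the low values were whole multiples of a step particular to each library, so that the reads could be recovered. Linear values above 20 were not checked in this way, and at high expression the 2 deposited decimals make the recovered reads approximate. Their sum lay between 20250000 and 27350000 per library, and the solute carriers held between 1.39% and 1.49% of it. At each time, the value with miR-16 minus that with miR-CTR is called the log2 fold change (logFC), its mean over 24 and 48 h the late logFC, and a gene past 0.5 in size was called lower or higher. The standard error (SE) beside a logFC comes from the recovered reads and covers counting error only. All 7 melanocyte markers listed (*MLANA*, *PMEL*, *TYR*, *DCT*, *TYRP1*, *MITF*, and *SOX10*) had a row, with values from 12.29 to 17.88 at 0 h, whereas none of the 3 leukocyte, 3 endothelial, and 3 epithelial markers had one. The RNA came from whole cultures, so that fewer cells and less RNA per cell cannot be told apart.

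At 0 h, the transporters that stood highest per kb of exon were those of mitochondria, of the melanosome, and of amino acid uptake. *SLC25A5*, the ADP/ATP carrier of the inner mitochondrial membrane, had 8220 normalized reads per kb of annotated exon, followed by its relative *SLC25A6* with 3733. *SLC45A2* had 3646 and *SLC7A5*, which imports leucine and other large neutral amino acids, had 2766 reads per kb. The zinc carriers *SLC39A7* and *SLC39A6* had 2438 and 2225, and the monocarboxylate carrier family member *SLC16A6* had 2162. The median member had 127 reads per kb. *SLC25A5* and *SLC25A6* have near-identical relatives and processed copies elsewhere in the genome, so that their levels are uncertain. On the log2 scale, the mean over the 9 libraries ran from 4.21 to 13.88 among the members, with a median of 9.57, against 9.14 for all genes. Of the 204 members, 177 lay above the lowest 25% of all genes (a mean of 7.02) and 27 within it, and none was at 0 in any library.

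Late after transfection, 21 of 204 solute carriers (10.3%) were lower and 15 (7.35%) were higher with miR-16 than with miR-CTR. Among all genes, 5.73% were lower and 7.76% were higher. The other 168 members stayed within 0.5. The median late logFC of the members was 0.00, against 0.005 for all genes, and 102 members lay below 0 and 102 above, and the same number on either side of 0 is a count and not a test. Late logFC ran from −1.38 for *SLC2A14* to 1.62 for *SLC16A6*. Of the 21 lower members, 18 were above the lowest 25% of expression, and for all but *SLC6A16* the 95% counting interval stayed below 0. Only 9 of the 15 higher members were above the lowest 25%, although all 15 counting intervals stayed above 0. The median counting SE of the late logFC was 0.047 above the lowest 25% and 0.197 within it. Just outside the threshold lay *SLC39A1* and *SLC25A40*, both at −0.50, and *SLC33A1* at 0.50, named for that position after their values were seen.

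**Figure D1:**
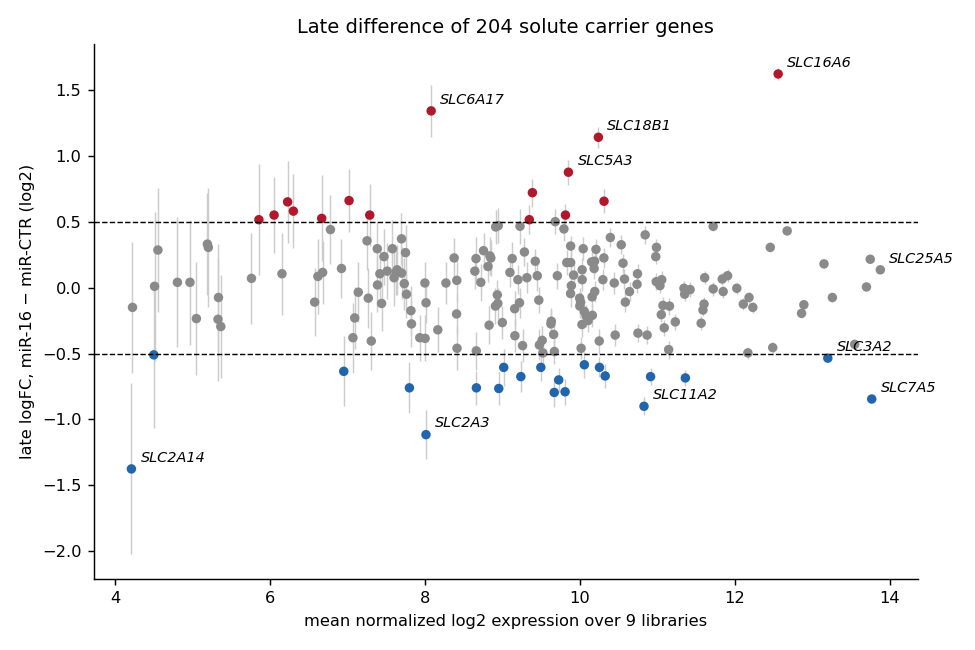
Late logFC (miR-16 minus miR-CTR, log2) of the 204 solute carrier genes against their mean normalized log2 expression over 9 libraries, with 95% counting intervals as vertical lines and the threshold of 0.5 dashed. The 21 lower genes (blue) lie at all levels down to *SLC2A14* at a mean of 4.21, and 6 of the 15 higher genes (red) lie in the lowest 25% of expression.

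Counts were highest at 48 h, for the members and for all genes alike. At 6 h, 5 members (2.45%) were lower, against 3.34% of all genes, and 2 (0.98%) were higher, against 3.38%. These were *SLC9A3*, *SLC2A3*, *SLC6A16*, *SLC9A8*, and *SLC38A9* on the lower side and *SLC9A9* and *SLC12A5* on the higher side. Only *SLC2A3*, *SLC6A16*, and *SLC9A8* among these 7 were also called late in the same direction. At 12 h, 9 members (4.41%) were lower and 7 (3.43%) were higher, against 2.53% and 3.31% of all genes. At 24 h the counts were 18 (8.82%) and 9 (4.41%), against 5.26% and 7.24%. At 48 h they were 33 (16.2%) and 25 (12.3%), against 8.96% and 10.4%. Both at 24 h and at 48 h, 15 members (7.35%) were lower and 6 (2.94%) were higher, against 2.78% and 4.03% of all genes. Among the 21 members called lower late, the median logFC was −0.26, −0.43, −0.62, and −0.83 at 6, 12, 24, and 48 h, and 14 were lower at all 4 times. For the 15 called higher, the medians were 0.17, 0.19, 0.47, and 0.83, and 11 were higher at all 4 times. The 24 and 48 h values of these medians follow from the call, and only the 6 and 12 h libraries were not used to choose the members.

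**Figure D2:**
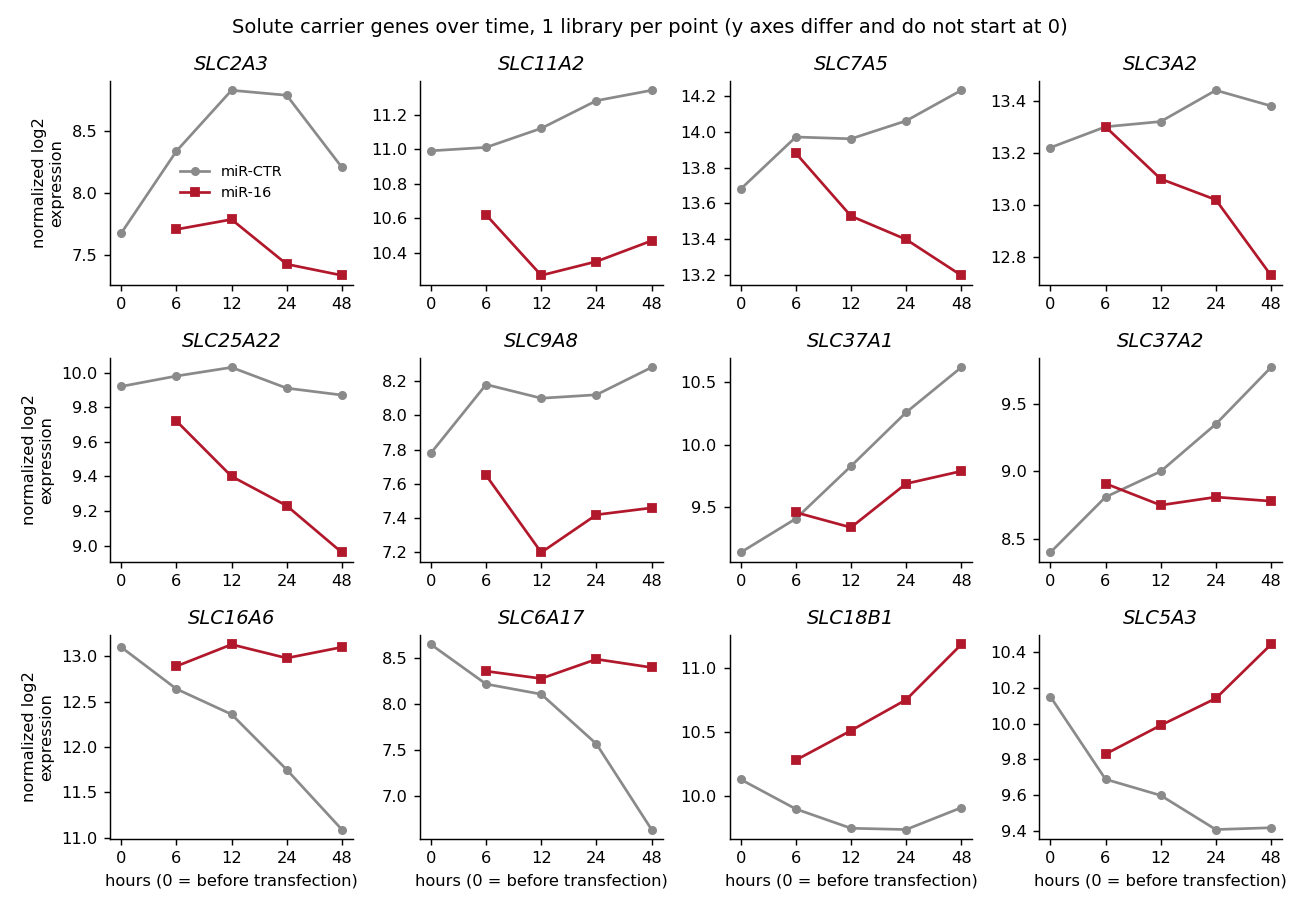
Normalized log2 expression of 12 solute carrier genes at 0, 6, 12, 24, and 48 h (evenly spaced on the axis, 1 library per point, y axes differ) with miR-CTR (grey) and miR-16 (red). In the top and middle rows, such as *SLC7A5* at 14.23 with miR-CTR and 13.20 with miR-16 at 48 h, the miR-16 points end lower, and in the bottom row, such as *SLC16A6* at 11.09 and 13.10, they end higher.

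Sugar carriers held the lowest values of all. *SLC2A3* (chr12:7919230-7936275, reverse strand) encodes GLUT3, a high-affinity glucose transporter. Its normalized log2 expression was 7.68 at 0 h, then 8.34, 8.83, 8.79, and 8.21 with miR-CTR, against 7.71, 7.79, 7.43, and 7.34 with miR-16 at 6, 12, 24, and 48 h. All 4 miR-CTR libraries lay above 0 h, and the miR-16 libraries lay just above 0 h early and under it late. The late logFC was −1.12 ± 0.096 (counting SE), a 2.17-fold lower level. *SLC2A14*, a close copy of *SLC2A3* on the same chromosome, was listed at 4.22 at 0 h, 4.26, 4.46, 5.24, and 4.82 with miR-CTR, against 3.99, 3.59, 3.65, and 3.66 with miR-16. Its late logFC of −1.38 ± 0.331 rested on only 11 to 35 reads per library, and since both genes share near-identical sequence, reads may have been split between them. Both 3′UTRs hold 1 8mer for miR-16, shown above in nearly the same surroundings.

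*SLC37A1* and *SLC37A2*, which belong to the sugar phosphate exchangers of the endoplasmic reticulum, had another course. *SLC37A1* stood at 9.14 at 0 h, 9.41, 9.83, 10.26, and 10.62 with miR-CTR, against 9.46, 9.34, 9.69, and 9.79 with miR-16. *SLC37A2* stood at 8.40 at 0 h, 8.81, 9.0, 9.35, and 9.77 with miR-CTR, against 8.91, 8.75, 8.81, and 8.78 with miR-16. In both, every library with either mimic was above 0 h and the miR-CTR value was higher at each later time, while the miR-16 values stayed within a narrower range. Late logFC was −0.70 ± 0.045 and −0.77 ± 0.062. *SLC37A1* held no seed match, and *SLC37A2* held 1 7mer-m8. GLUT1 (*SLC2A1*), the common glucose uniporter, did not pass the threshold, with a late logFC of −0.44 ± 0.060 and no seed match, although its 48 h logFC alone was −0.67. On the higher side, *SLC5A3*, which imports myo-inositol with sodium, read 10.15 at 0 h, 9.69, 9.60, 9.41, and 9.42 with miR-CTR, against 9.83, 9.99, 10.14, and 10.44 with miR-16. Its late logFC was 0.88 ± 0.048, with all 4 miR-CTR libraries under 0 h and the 48 h miR-16 library above it. *SLC2A12* (GLUT12) was higher by 0.55 ± 0.146, but 38.9% of its exon bases overlap *TBPL1* on the other strand, and whether the counting used strand is not known. In all, 4 of the 22 members classed as sugar carriers were lower and 2 were higher, with a median of 0.05 for the class. Among all genes, 5.73% were lower and 7.76% were higher, and no class was tested against these shares. Classes here follow family numbers and not the known substrate of each member.

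Among the amino acid and transmitter carriers, 6 of 30 were lower and 5 were higher, against 5.73% and 7.76% of all genes. The median of this class was −0.13. *SLC7A5* (chr16:87830023-87869488, reverse strand), the light chain LAT1, read 13.68 at 0 h, 13.97, 13.96, 14.06, and 14.23 with miR-CTR, against 13.88, 13.53, 13.40, and 13.20 with miR-16. The 2 series parted from 12 h on, to either side of 0 h. With about 8923 to 22508 reads per library, the late logFC was −0.85 ± 0.013, a 1.80-fold lower level. Its 3′UTR held 2 seed matches, the 7mer-m8 shown above and a 7mer-A1. Its heavy chain *SLC3A2* (chr11:62856102-62888875, forward strand) was 13.22 at 0 h, 13.30, 13.32, 13.44, and 13.38 with miR-CTR, against 13.30, 13.10, 13.02, and 12.73 with miR-16. The same parting was seen with a smaller size, a late logFC of −0.54 ± 0.015, and no miR-16 seed match lies in its short 3′UTR of 182 bases.

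The other light chains of SLC3A2 differed from one another. *SLC7A11*, the cystine and glutamate exchanger xCT, was lower by −0.59 ± 0.050 late and held no seed match. *SLC7A8* (LAT2), highly expressed at 13.60 at 0 h, reached a late logFC of −0.43 ± 0.014, under the threshold. *SLC7A6* (y+LAT2) was at 0.02 ± 0.049 with 2 seed matches, and 44.4% of its exon bases overlap *SLC7A6OS* on the other strand. *SLC7A7* (y+LAT1), a weakly expressed gene at 5.10 at 0 h, was at 0.07 ± 0.176. *SLC7A10* was not analysed here. In total, the heavy chain and 2 of the 5 measured light chains passed the threshold on the lower side, as did 5.73% of all genes.

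*SLC6A17*, a carrier of neutral amino acids into synaptic vesicles, had the highest late logFC of this class. It read 8.65 at 0 h, 8.22, 8.11, 7.57, and 6.64 with miR-CTR, against 8.36, 8.28, 8.49, and 8.40 with miR-16. The miR-CTR values were lower at each later time, whereas the miR-16 values stayed between 8.28 and 8.49, and the late logFC was 1.34 ± 0.102. *SLC7A2*, a carrier of arginine and lysine, read 11.02 at 0 h, 10.61, 10.08, 9.71, and 9.62 with miR-CTR, against 10.78, 10.35, 10.25, and 10.39 with miR-16. Here all libraries of both mimics were under 0 h, and the late logFC was 0.66 ± 0.046. The lysosomal carriers *SLC15A4* (histidine and peptides) and *SLC38A7* (glutamine and asparagine) were at −0.68 ± 0.059 and −0.61 ± 0.054. The taurine carrier *SLC6A6* was at 0.72 ± 0.054, *SLC43A2* at 0.55 ± 0.121, and the glutamate carrier *SLC1A3* at 0.52 ± 0.214. *SLC6A16* was at −0.51 ± 0.283, with signs that differed between times.

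Of 24 metal carriers, 2 were lower and 0 were higher, against 5.73% and 7.76% of all genes. The median of this class was −0.16, with 16 members below 0. *SLC11A2* (chr12:50979401-51028566, reverse strand) encodes DMT1, which imports ferrous iron. Its values were 10.99 at 0 h, 11.01, 11.12, 11.28, and 11.34 with miR-CTR, against 10.62, 10.27, 10.35, and 10.47 with miR-16. All 4 miR-16 libraries lay under 0 h and all 4 miR-CTR libraries above it, and the late logFC was −0.90 ± 0.035. Its 3′UTR held 4 seed matches, of which the 8mers are shown above. *SLC39A8*, an importer of zinc and manganese, was at −0.61 ± 0.039. *SLC30A1*, the zinc exporter of the plasma membrane, was under 0 h in every transfected library, at 10.05 at 0 h, 8.43 at 48 h with miR-CTR, and 9.10 with miR-16, and its late logFC of 0.47 ± 0.068 was under the threshold.

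The exchangers of sodium for protons or calcium gave 3 lower members and 1 higher of 13, against 5.73% and 7.76% of all genes. The median of the class was 0.20. *SLC9A8*, a sodium proton exchanger of endosomes and Golgi, read 7.78 at 0 h, 8.18, 8.10, 8.12, and 8.28 with miR-CTR, against 7.65, 7.20, 7.42, and 7.46 with miR-16. It was on opposite sides of 0 h at all 4 times, with a late logFC of −0.76 ± 0.098 and 4 seed matches in a 3′UTR of 4306 bases. The Golgi member *SLC9A7* was at 0.66 ± 0.122, with 4 seed matches. Of the 16 carriers of bicarbonate, chloride, and sulfate, only the sodium bicarbonate cotransporter *SLC4A4* was called, at −0.64 ± 0.136. Its relative *SLC4A7*, which held an 8mer too, was just under the threshold at −0.49 ± 0.050.

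**Figure D3:**
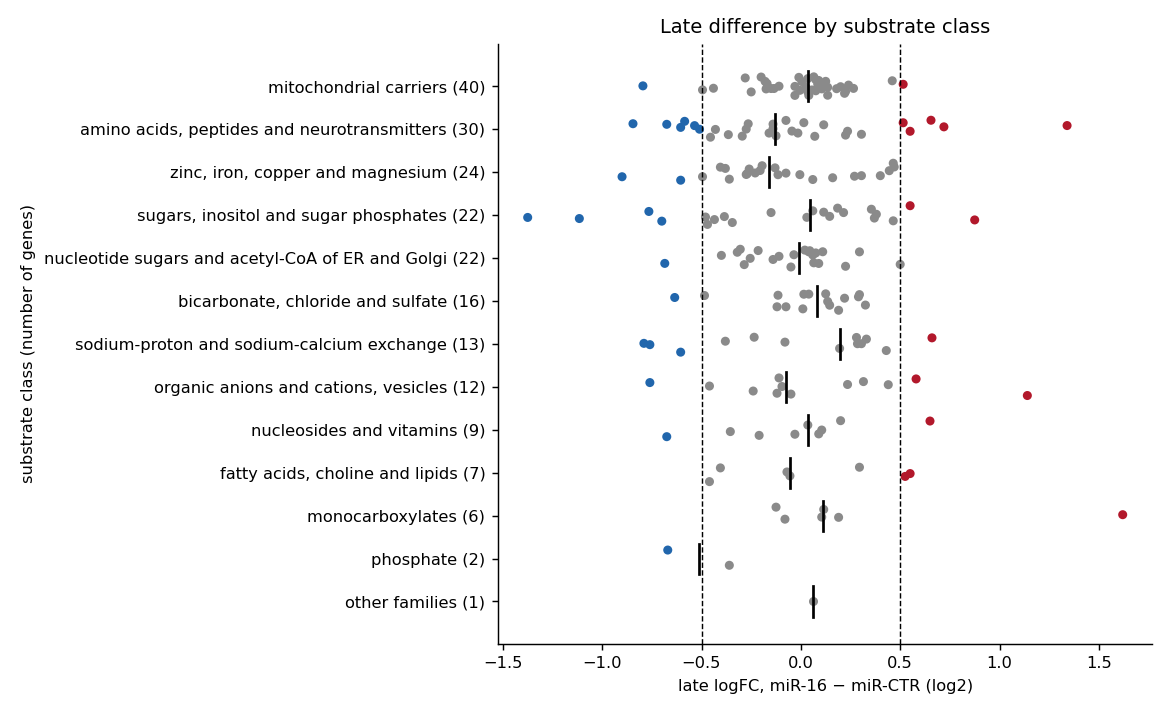
Late logFC (miR-16 minus miR-CTR, log2) of the 204 genes by class of substrate, 1 point per gene, with the median of each class as a vertical bar and the threshold of 0.5 dashed. Most of the 40 mitochondrial carriers sit near 0, with 38 within 0.5, whereas the amino acid class spreads from −0.84 to 1.34.

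The mitochondrial carriers were the class with the most members. Of these 40, 38 stayed within 0.5, and the median was 0.04. The exception on the lower side was *SLC25A22*, which imports glutamate into mitochondria. It read 9.92 at 0 h, 9.98, 10.03, 9.91, and 9.87 with miR-CTR, against 9.72, 9.40, 9.23, and 8.96 with miR-16. The miR-CTR values kept between 9.87 and 10.03 and the miR-16 values were lower at each later time, giving a late logFC of −0.80 ± 0.055. Its 3 overlapping 7mer-m8 matches form 1 run of the same repeated triplet, shown above. On the higher side stood *SLC25A43* at 0.52 ± 0.055. The abundant *SLC25A3*, the mitochondrial phosphate carrier, and *SLC25A5* were at 0.01 ± 0.013 and 0.14 ± 0.011.

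*SLC16A6* (chr17:68267026-68291267, reverse strand), of the monocarboxylate carrier family, had the highest late logFC of all members. Its normalized log2 expression was 13.10 at 0 h, then 12.64, 12.36, 11.75, and 11.09 with miR-CTR, against 12.89, 13.13, 12.98, and 13.10 with miR-16. The miR-CTR values were lower at each later time, and the 48 h miR-16 value was that of 0 h. The late logFC was 1.62 ± 0.022, a 3.07-fold higher level, and the 3′UTR held 1 7mer-m8. The lactate carriers of the same family were within the threshold, *SLC16A1* (MCT1) at −0.13 ± 0.027 and *SLC16A3* (MCT4) at 0.19 ± 0.047. None of the other 5 members of this class was called.

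*SLC18B1* (chr6:132769370-132813339, reverse strand), a vesicular carrier of polyamines, had the third highest late logFC. It read 10.13 at 0 h, 9.90, 9.75, 9.74, and 9.91 with miR-CTR, against 10.28, 10.51, 10.75, and 11.18 with miR-16. All 4 miR-16 libraries were above 0 h and all 4 miR-CTR libraries under it. The late logFC was 1.14 ± 0.041, and no seed match lies in its 3′UTR. In the same class, *SLC17A5*, the sialic acid exporter of lysosomes, read 8.48 at 0 h, 8.34, 8.77, 9.36, and 9.39 with miR-CTR, against 8.07, 8.34, 8.55, and 8.68 with miR-16. It was lower with miR-16 at each time, with a late logFC of −0.76 ± 0.065, no seed match, and both late miR-16 libraries above 0 h. The dicarboxylate carrier *SLC13A3* was at 0.58 ± 0.143, with 3 seed matches, 1 of them an 8mer.

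In the remaining classes, few members passed the threshold. *SLC19A2*, which imports thiamine, was at −0.68 ± 0.032, and the lysosomal nucleoside carrier *SLC29A3* was at 0.65 ± 0.158. The phosphate carriers *SLC20A2* and *SLC20A1* were at −0.67 ± 0.045 and −0.36 ± 0.044. Of the 22 members classed by family number as carriers of the endoplasmic reticulum and Golgi, only *SLC35A4* was called, at −0.69 ± 0.031. The fatty acid proteins *SLC27A1* and *SLC27A3* were at 0.55 ± 0.044 and 0.53 ± 0.166. The heme carrier *SLC48A1*, alone in its class, was at 0.06 ± 0.056. *SLC15A4*, *SLC38A7*, *SLC39A8*, *SLC6A16*, *SLC25A43*, *SLC1A3*, *SLC27A3*, *SLC43A2*, *SLC2A12*, *SLC29A3*, *SLC9A7*, and *SLC6A6* are outside the naming rule and were named because they passed the threshold.

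The pigment cell carriers were abundant and did not pass the threshold. *SLC45A2* read 13.54 at 0 h, 13.57, 13.64, 13.65, and 13.95 with miR-CTR, against 13.69, 13.67, 13.92, and 14.11 with miR-16. It was above 0 h in all 8 transfected libraries and at a late logFC of 0.22 ± 0.012, with the 8mer shown above in its 3′UTR. *SLC24A5* read 12.43 at 0 h, 12.21, 12.31, 12.60, and 13.21 with miR-CTR, against 12.19, 12.46, 12.95, and 13.72 with miR-16. It stood above 0 h with both mimics by 24 h, with a late logFC of 0.43 ± 0.016, but 32.9% of its exon bases overlap *MYEF2* on the other strand. The melanocyte marker *DCT* ran from 12.29 at 0 h to 14.38 at its highest over the same libraries, and its part in these values was not tested.

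Comparison with 0 h gave the distance of the late libraries of each mimic from the untransfected library. Both mimic series are set against the same single untransfected library, so that time in culture and transfection cannot be told apart. With miR-CTR, 35 members (17.2%) were higher late than at 0 h, against 11.0% of all genes, and 14 (6.86%) were lower, against 9.79%. With miR-16, 37 members (18.1%) were higher, against 14.1% of all genes, and 24 (11.8%) were lower, against 11.7%. The median change of the members from 0 h was 0.08 with miR-CTR and 0.02 with miR-16, against 0.00 and −0.005 for all genes. The class of sugar carriers contributed 9 of the 35 members that were higher with miR-CTR. Past 0.5 with both mimics were 23 members (11.3%) on the higher side, against 7.79% of all genes, and 4 of 204 on the lower side, against 4.73%. The latter were *SLC30A1*, *SLC7A2*, *SLC12A2*, and *SLC41A2*.

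*SLC5A9* and *SLC5A4*, of the sodium glucose cotransporter family, lay farthest above 0 h with miR-CTR. With miR-16, *SLC5A4* lay farthest, and *SLC13A3* was above *SLC5A9*. The late mean of *SLC13A3* was above 0 h by 1.165 with miR-CTR and by 1.745 with miR-16. *SLC5A9*, outside the naming rule and named after its values were seen, was weakly expressed, with 8 to 44 reads per library, and was above 0 h by 1.86 ± 0.486 with miR-CTR and by 1.71 ± 0.492 with miR-16. *SLC5A4* read 10.55 at 0 h, 11.21, 11.45, 11.66, and 12.74 with miR-CTR, against 11.17, 11.38, 12.04, and 13.29 with miR-16. Each later library was higher with either mimic, and the late mean was above 0 h by 1.65 ± 0.041 with miR-CTR and by 2.12 ± 0.040 with miR-16. The muscle and fat glucose carrier *SLC2A4* (GLUT4) was above 0 h by 1.19 ± 0.145 and 1.31 ± 0.146, and the magnesium carrier *SLC41A3* by 1.22 ± 0.129 and 1.11 ± 0.130. *SLC12A2*, the sodium potassium chloride cotransporter NKCC1, was at −0.88 ± 0.086 and −0.66 ± 0.086.

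**Figure D4:**
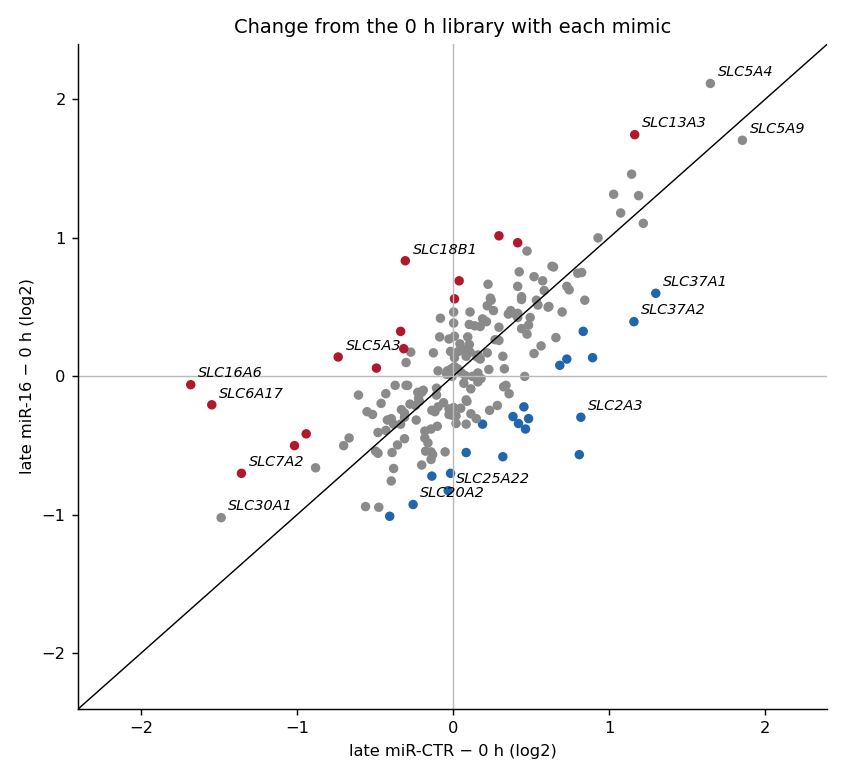
Late change of each of the 204 genes from the 0 h library with miR-CTR (horizontal) and with miR-16 (vertical), both in log2 and both set against the same 0 h library, with the line of equal change. Genes called lower with miR-16 (blue) lie under the line, several of them at positive miR-CTR values such as *SLC37A1* at 1.30, and *SLC16A6* lies at −1.68 with miR-CTR and −0.06 with miR-16.

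For the 21 members called lower, the median change from 0 h was −0.34 with miR-16 and 0.46 with miR-CTR. Only 8 of them were lower than 0 h past 0.5 with miR-16, among them *SLC2A14*, *SLC11A2*, *SLC25A22*, *SLC35A4*, *SLC20A2*, *SLC4A4*, and *SLC7A11*, and 6 were at or above 0 h. For the 15 called higher, the medians were 0.20 with miR-16 and −0.34 with miR-CTR. Of these, 6 were higher than 0 h past 0.5 with miR-16, and 5, among them *SLC16A6*, *SLC6A17*, and *SLC7A2*, were at or under 0 h. These values share the late libraries with the call itself and are given as a description.

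Seed matches for miR-16 were found in the longest annotated 3′UTR of 78 of the 202 members with one (38.6%), against 29.2% of all genes with a 3′UTR. The search read the mRNA strand only, each gene was put in the class of its best match, and a match is a run of letters and not a shown site. The median 3′UTR length was 1647.5 bases for members and 1420 for all genes. An 8mer was held by 17 members, a 7mer-m8 at best by 50, and a 7mer-A1 at best by 11, or 8.4%, 24.8%, and 5.4% of the members against 5.0%, 20.6%, and 3.7% of all genes. The median late logFC was −0.25 for members with an 8mer, −0.12 with a 7mer-m8, −0.005 with a 7mer-A1, and 0.05 with none. In the same order, it was −0.17, −0.07, −0.08, and 0.02 for all genes.

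Of the 21 members called lower, 16 (76.2%) held a match, against 52.7% of the 632 genes called lower that had a 3′UTR. Of the 15 called higher, 9 (60.0%) held one, against 21.1% of the 734 genes called higher that had a 3′UTR. For the 166 others with a 3′UTR it was 53 (31.9%), against 28.3% of such genes. The median 3′UTR length was 1804 bases for the lower and 2199 bases for the higher members, both longer than that of the members as a whole, and its part in these shares was not tested. The 5 lower members without a match were *SLC17A5*, *SLC37A1*, *SLC7A11*, *SLC3A2*, and *SLC6A16*. An 8mer did not go with a lower level in each gene that held one. Of the 17 members with an 8mer, 5 were called lower (*SLC2A14*, *SLC2A3*, *SLC11A2*, *SLC20A2*, and *SLC4A4*), *SLC13A3* was called higher, and 11 were not called, such as *SLC35A5* at −0.26, *SLC25A30* at −0.25, *SLC39A10* at −0.21, *SLC25A12* at −0.18, *SLC35G1* at 0.08, and *SLC25A37* at 0.13.

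**Figure D5:**
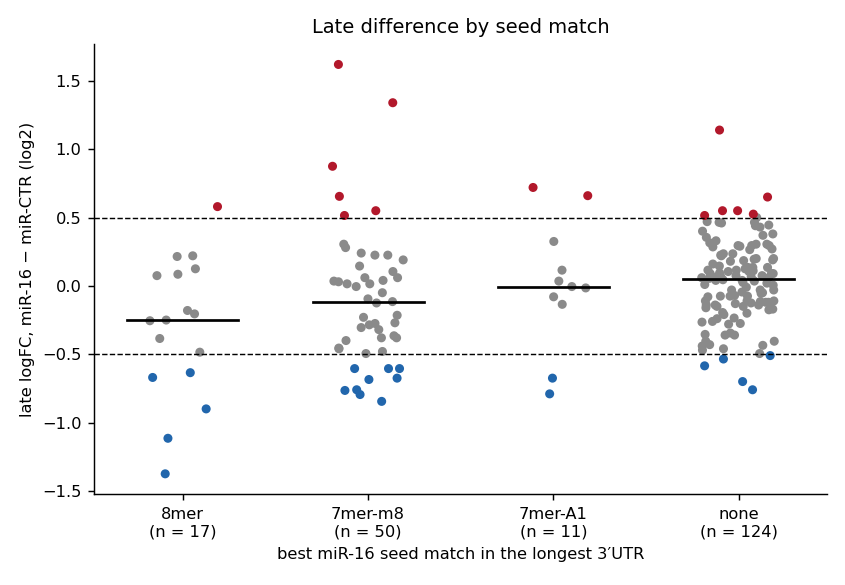
Late logFC (log2) of the 202 members with an annotated 3′UTR by their best miR-16 seed match, 1 point per gene, with medians as horizontal bars and the threshold of 0.5 dashed. Medians run from −0.25 with an 8mer to 0.05 without a match, and genes called higher (red) are found in each of the 4 columns.

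Transporters and partners with other symbols, from a list of 35 of which 30 had a row, gave 6 lower and 0 higher, with a median late logFC of −0.14. Among all genes, 5.73% were lower and 7.76% were higher, with a median of 0.005, and with 30 genes listed no direction is read from these counts. *MFSD12*, which acts in the import of cystine into melanosomes and lysosomes, had the lowest value. It read 14.29 at 0 h, 14.42, 14.43, 14.65, and 14.58 with miR-CTR, against 14.29, 14.10, 13.71, and 13.15 with miR-16. The other 5 lower genes were *MFSD2A*, *MFSD6*, *MFSD3*, *MFSD1*, and *MFSD5*. *BSG*, the chaperone of the lactate carriers, was at 13.70 at 0 h and 13.83 and 13.76 at 48 h with miR-CTR and miR-16.

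Exons of 55 of the 203 members found in the annotation overlap those of another measured gene, and reads from the shared bases cannot be assigned with certainty. Of the 364 protein-coding genes in GENCODE version 29 whose symbols meet the rule, 161 were not analysed here.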

How the data were processed

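PolyA RNA of MP41 cells was sequenced in 9 libraries, 1 per condition. The authors deposited normalized log2 values with 2 decimals for 14839 genes, of the form log2(reads / size factor + 1). The submitters' processing notes name FastQC, STAR 2.4.0a, and featureCounts of Subread 1.5.0-p3 on GRCh38. The annotation, the strand setting, the filter on weakly expressed genes, and the normalization tool are not given in the sources used here. No further normalization was applied to them. Columns are headed by time ranks, which were matched to the labelled hours in rising order.

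Linear values up to 20 were whole multiples of 1 step per library for 100% of values (tolerance 0.1 step). The range was widened to 20 after seeing the data, since 1 library had few lower values. Dividing by the step gave reads, 20250000 to 27350000 per library, and counting SEs of differences. At high values, the 2 decimals make these reads approximate. SEs and 95% intervals cover counting error only. With 1 library per condition no test was run. Calls used a difference past 0.5 over all genes, and percentages of all genes refer to these 14839. Those for seed matches refer only to genes with a 3′UTR, 11584 in all. Substrate classes followed family numbers. Some members are counted but not reported here. Positions, exons, and 3′UTRs came from GENCODE version 29, joined by symbol (203 of 204 members, *SLC35E2* not matched). Calling and read recovery were tested on simulated data. Python 3.11.15, pandas 2.3.3, numpy 2.4.6, and matplotlib 3.10.9 were used.

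Members, lists, and alternatives were chosen with earlier results of these data known. The naming rule took up to 10 members each with the lowest and the highest late logFC, if past 0.5 at 24 h and at 48 h and outside the lowest 25% of expression (5 on the higher side), the 10 highest means, the largest change and highest mean of each class, the 5 lowest and 5 highest changes of miR-CTR from 0 h outside the lowest 25%, SLC3A2 with its light chains, members with an 8mer, and glucose, lactate, and pigment cell carriers. Melanocyte, retinal pigment epithelium, leukocyte, endothelium, and epithelium markers were listed. Of the 4 retinal pigment epithelium markers, *BEST1* and *RLBP1* had a row, at 8.38 and 4.86 at 0 h. Alternatives were a threshold of 1.5-fold, both late times, single times, the 0 h reference, a filter on the lowest 25%, quantile normalization, centring by library median, and a pseudocount of 8.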

Additional observations from a re-analysis of the deposited data

Results flagged for a closer look

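In 8 of the named solute carriers, both late libraries of each mimic moved from the 0 h library in opposite directions with miR-CTR and miR-16. The difference was not tested, since each condition had 1 library. Above 0 h with miR-CTR and under it with miR-16 were *SLC2A14* (late logFC −1.375), *SLC2A3* (−1.115), *SLC11A2* (−0.9), *SLC7A5* (−0.845), *SLC9A8* (−0.76), *SLC19A2* (−0.675), and *SLC3A2* (−0.535). The single gene with the opposite arrangement was *SLC18B1* (1.14).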

How the results depend on the processing

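The count of 21 lower solute carriers kept within 1.5 times under each alternative other than 48 h alone, which gave 33. Against the 0 h library the count was 24, but only 8 of the 21 lower members were among these. The count of 15 higher ones was less stable, with 9 at 24 h alone, 25 at 48 h alone, 37 against the 0 h library, 8 past 1.5-fold, 6 past 0.5 at both late times, and 9 above the lowest 25% of expression, the last from fewer genes. The median late logFC of 0.00 became −0.03 at 24 h alone, 0.02 against 0 h, and −0.03 above the lowest 25%. Of the 23 named members past 0.5, all 23 kept their sign and passed 0.5 under quantile normalization, centring, and a pseudocount of 8. At 24 h alone all kept their sign and 19 passed. Against 0 h, 17 kept their sign and 10 passed, and the difference turned for *SLC16A6* (−0.06), *SLC6A17* (−0.205), *SLC7A2* (−0.7), *SLC17A5* (0.135), *SLC37A1* (0.6), and *SLC37A2* (0.395). That reference uses the untransfected library in place of miR-CTR. Libraries were compared within each time, and no further fit with time as a block was run. Depth limits the 27 members in the lowest 25%, where the median counting SE was 0.197.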
